A study of Mus musculus with 6 samples.

Results

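The genes described here encode the Eph receptors and their ephrin ligands, the Slit ligands and their Robo receptors, and the netrins with their receptors. They were taken as every gene with a probe set annotated to 1 symbol alone that starts with Epha, Ephb, Efna, Efnb, Unc5, Ntng or Robo, or that is Slit1, Slit2, Slit3, Ntn1, Ntn4, Dcc or Neo1. The rule gave 40 genes, with 86 probe sets, of 18193 genes measured in all. Of these, 15 are ligands, 23 are receptors and 2 are neither. The last 2 were caught by the spelling of their names: Unc50, whose product is a membrane protein of the Golgi, and Unc5cl, whose product resembles UNC5 proteins but is not known as a netrin receptor. A gene's value is that of the probe set with the highest mean over the arrays.

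The samples were ribosome-bound RNA from the cerebral cortex of S100a10 bacTRAP mice (line ES691), which carry a tagged ribosomal protein under the control region of S100a10 on a bacterial artificial chromosome. Pulling down the tag recovers the RNA on the ribosomes of the cells that use that control region (translating ribosome affinity purification, TRAP). All mice, backcrossed from FVB onto C57BL/6 over 3 to 5 generations, carried the transgene. The fluoxetine group (3 arrays) drank fluoxetine, a serotonin reuptake inhibitor, at 0.167 mg/ml with 1% saccharine, and the vehicle group (3 arrays) drank 1% saccharine, both for 15 to 18 days. The labels call the samples biological replicates without saying whether 1 or several animals went into each, and give no age, so p-values measure the spread between these samples, which may in part be technical. The submitters state that the line also marks some cells that are not neurons.

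Axon guidance molecules are known for steering growing axons, and many remain in the adult brain at synapses. Ephrin-A ligands are held in the membrane by a lipid anchor and ephrin-B ligands span it, so both act between touching cells. They bind Eph receptors, the largest family of receptor tyrosine kinases, and can also signal back into the cell that carries them. Slit proteins are secreted and repel axons through Robo receptors. Netrins are secreted proteins that attract through DCC and repel through UNC5 receptors, while the netrin-Gs are lipid-anchored relatives that bind NGL proteins at synapses instead.

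Values are GCRMA intensities on a linear scale, and probe sets entered the test at a geometric mean of 50 or more across all 6 arrays, a level taken from the submitters' advice. Intensity depends on how well a probe set binds its target, so levels of different genes are not ranked. The 5 probe sets annotated to Neo1, for example, had geometric means from 2.83 to 5044. Of the 40 genes, 30 reached 50: 13 of 15 ligands (86.7%), 16 of 23 receptors (69.6%) and Unc50. Of all genes measured, 67.3% did. Efna1 (geometric mean 56.2) was the member just inside the limit and Ephb4 (41.6) the one just outside.

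The arrays had median intensities of 47.3 to 48.6 and upper quartiles of 498 (fluoxetine 2) to 574 (vehicle 2). Pairs of arrays correlated at 0.980 to 0.992 over the tested probe sets. Of 8 layer 5 markers on the array 7 reached the level of 50: S100a10 read 32391 to 38076 and Fezf2, a transcription factor of layer 5 neurons, 2156 to 2633, while Chrna5 lay below it at 22.4 to 32.3. The 7 tested layer 5 markers had a median difference of −0.05 (log2), 0 higher and 7 lower with fluoxetine, or 4 higher and 3 lower after quantile normalization. Astrocyte markers differed between arrays, with a mean log2 intensity over 8 genes of 10.99, 9.47 and 10.40 with fluoxetine (replicates 1, 2 and 3) and of 9.56, 9.77 and 9.73 with vehicle. Of these 8 genes 5 were higher and 3 lower with fluoxetine (median 0.19), or 7 higher and 1 lower under either rescaling (median 0.25). Their summed intensity was 32793 to 37823 with fluoxetine and 32337 to 37222 with vehicle, with Gja1 alone at 22422 to 27866. Gfap alone, the astrocyte filament gene, read 4484, 22.5 and 519 against 26.1, 37.8 and 50.8. Summed pericyte and smooth muscle markers read 6907 to 9225 with fluoxetine and 8588 to 13504 with vehicle, all 5 tested genes being measured lower. Microglial markers were 4 of 4 higher (summed intensity 1235 to 1896 against 1153 to 1470.4), and P2ry12, a defining microglial receptor, read 6.8 or less. Endothelial markers were dim, with sums of 332 to 448 against 371 to 458 and Pecam1 at 5.4 or less. Meningeal and choroid plexus markers had the largest median difference of the marker lists, 0.48 (log2), with 6 of 7 higher as deposited and under both rescalings. Among them Col1a1, a fibroblast collagen gene, read 301, 161 and 184 with fluoxetine and 118, 111 and 143 with vehicle. Igf2, the 1 gene of the list measured lower, read 5060, 6874 and 6938 against 7567, 8952 and 9087. Ttr varied widely, at 245, 798 and 69.5 against 82.1, 95.5 and 160. The summed intensity of the list was 19857 to 22192 against 19190 to 23868. Oligodendrocyte markers were 1 of 4 higher (median −0.18), with sums of 13196 to 21906 against 19919 to 21474, lowest on fluoxetine 2. The 2 oligodendrocyte precursor markers differed by 0.29 (Pdgfra) and −0.32 (Cspg4). Neuronal markers were 3 higher and 4 lower (median −0.02), or 5 and 2 after quantile normalization. Interneuron markers were 3 higher and 3 lower (median −0.04). Of these, Vip read 793, 839 and 857 with fluoxetine against 1101, 1091 and 1068 with vehicle. Npy read 8530, 2127 and 2812 against 2276, 3138 and 3674. Ephrins, Ephs, Slits and netrins are also made by glia and vessels. The part of these differences in the results below was not tested, and in such samples fewer cells of a type and less RNA per cell cannot be told apart.

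**Figure D1:**
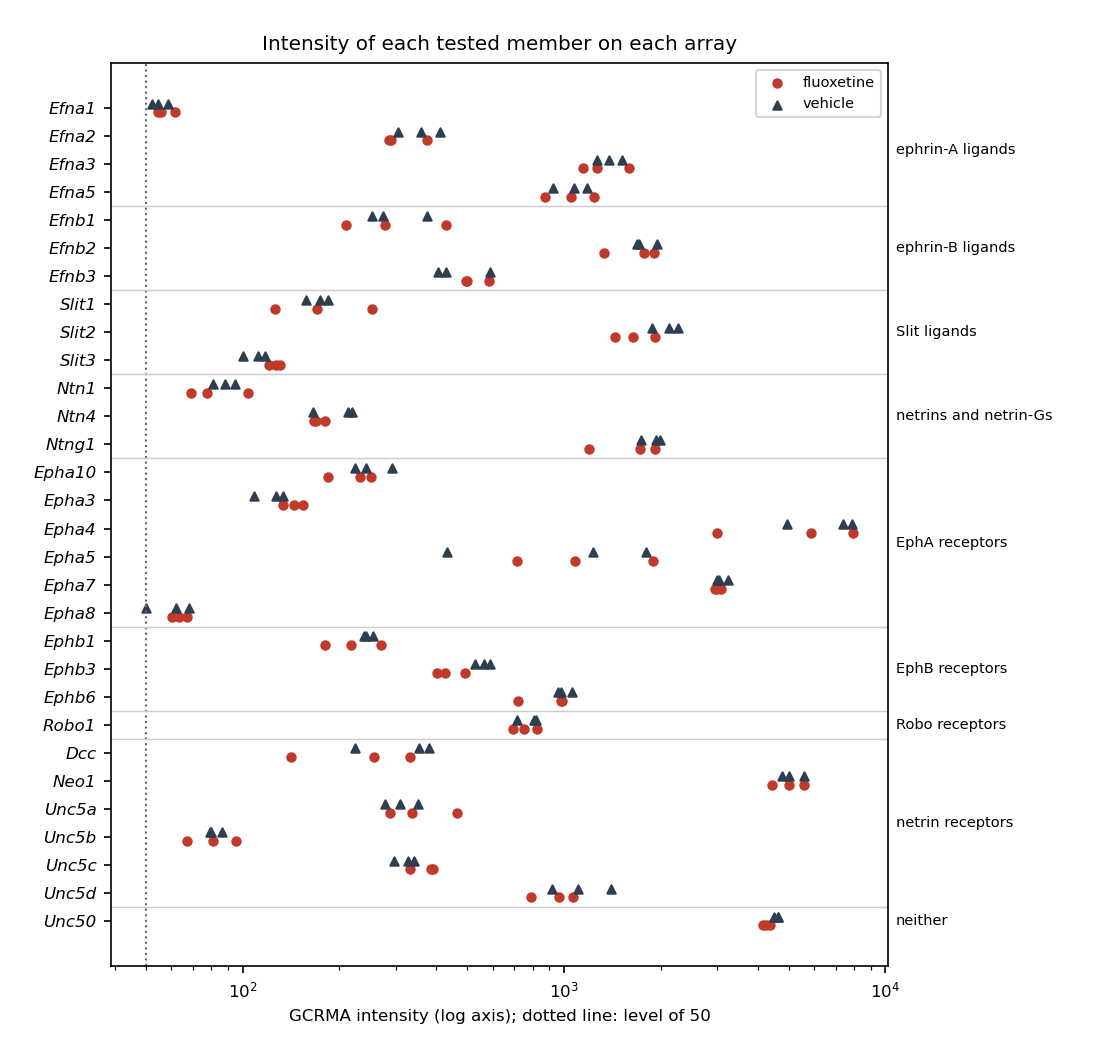
GCRMA intensity (log axis) of the 30 members that reached the level of 50, 1 gene per line grouped by class, with 3 fluoxetine arrays as circles and 3 vehicle arrays as triangles. Circles and triangles separate for Ephb3 (403 to 493 against 530.2 to 590), Slit3 (121 to 131 against 100.2 to 117) and Unc50, and overlap for the other 27.

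The comparison asks whether prolonged fluoxetine changes the translated RNA of these genes. Among the tested members 9 were measured higher and 21 lower with fluoxetine, with a median difference of −0.06 (log2), the same to 2 decimals as that of all 12248 tested genes, of which 68.5% were lower. None of the 30 passed limma's test adjusted over all 22326 tested probe sets (adjusted p of 0.999 for each), where 0% of all probe sets passed. At an unadjusted p under 0.05 there was 1 member, Ephb3, against 2.66% of all tested genes. Such members numbered 0 after either rescaling, with a replicate block and without fluoxetine 1, fluoxetine 2 or vehicle 1. They numbered 2 without fluoxetine 3, beside 200 higher and 520 lower of all 22326 probe sets. Without vehicle 2 they numbered 2 too, beside 126 higher and 192 lower. With no filter on low values they numbered 5 of 40, beside 1728 higher and 903 lower of 45037 probe sets. The groups did not overlap for 3 members, or 10%, against 8.32% of all tested genes, a share near that background. Of these 1 was higher (2.33% of all tested genes were) and 2 were lower (5.99% were). The split by direction changed with the scaling: after quantile normalization, or after shifting the arrays to a common median, 15 members were higher and 15 lower, and the median of all tested probe sets moved from −0.06 to 0.00 under both.

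Ligands and receptors gave similar counts in this comparison. Of the 13 tested ligands 4 were higher and 9 lower (median −0.07, range −0.33 to 0.20), and of the 16 tested receptors 5 were higher and 11 lower (median −0.04, range −0.44 to 0.23). After quantile normalization 7 ligands were higher and 6 lower, and 8 receptors were higher and 8 lower, with both medians at 0.00. After the shift to a common median it was 6 and 7 ligands and 9 and 7 receptors. Averaged over the ligands, log2 intensity was 8.61 ± 0.07 with fluoxetine and 8.68 ± 0.07 with vehicle (SD, n = 3 each). Averaged over the receptors, it was 9.01 ± 0.17 and 9.09 ± 0.09. The ligand mean minus the receptor mean was −0.40 ± 0.23 with fluoxetine and −0.41 ± 0.15 with vehicle, a difference of 0.01 that is smaller than the spread between arrays. This difference of differences ranged from −0.10 without fluoxetine 1 to 0.13 without fluoxetine 3.

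**Figure D2:**
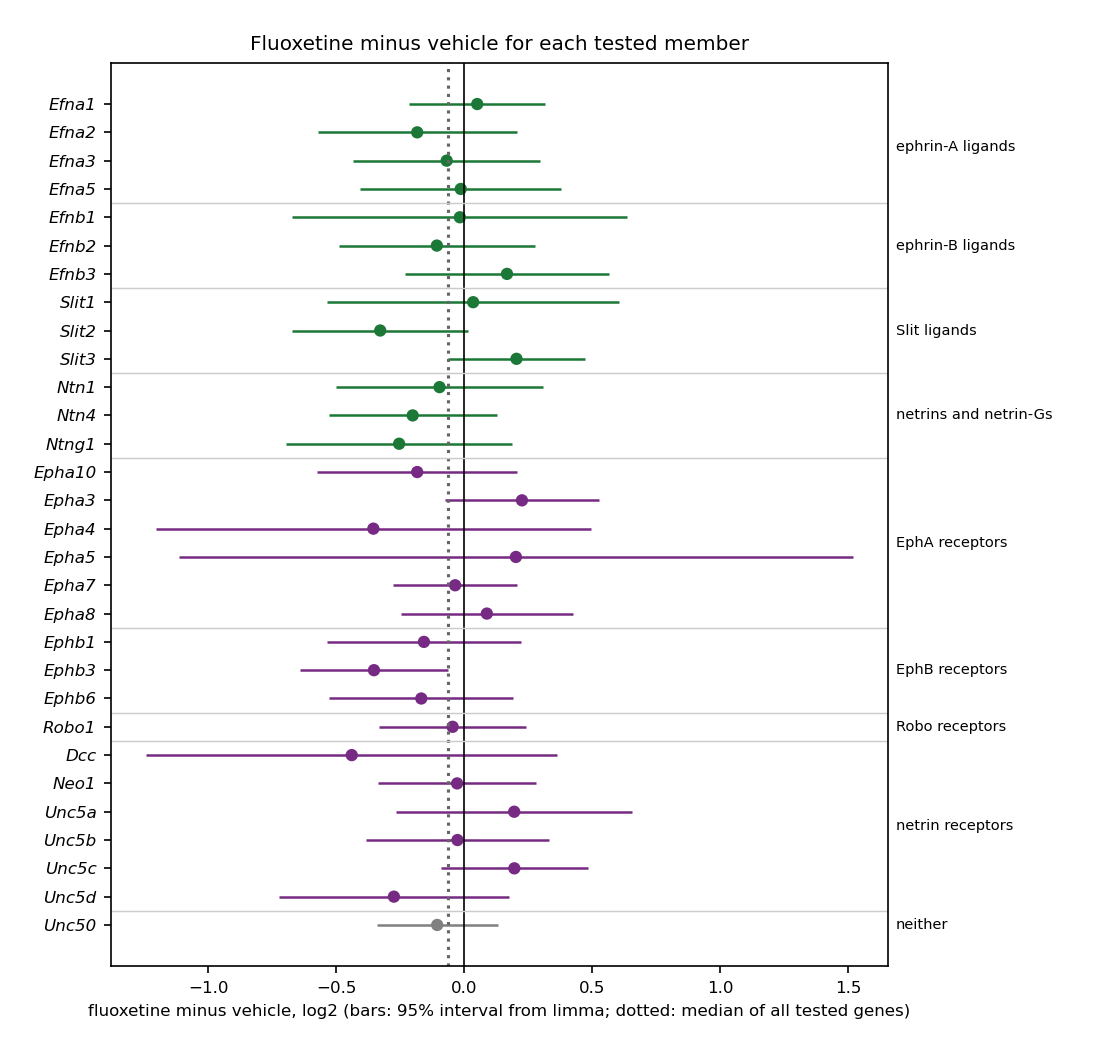
Fluoxetine minus vehicle (log2) for the 30 tested members with 95% intervals from limma, ligands in green, receptors in purple and Unc50 in grey, with the median of all tested genes as a dotted line. Only the interval of Ephb3 (−0.64 to −0.06) leaves out 0, and those of Epha4, Epha5 and Dcc are the widest.

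The ephrin-A ligands gave no separation by treatment. Efna3 read 1592, 1145 and 1263 with fluoxetine and 1268, 1383 and 1515 with vehicle, with both its highest and its lowest value under fluoxetine. Its difference was −0.07 ± 0.155 (log2, SE), and its other tested probe set differed by 0.08. Efna2 read 374, 290.2 and 285 with fluoxetine and 306, 359 and 412 with vehicle, overlapping between groups (−0.18 ± 0.165). Efna1, close to the limit of 50, read 54.4, 55.6 and 61.7 against 54.6, 58.7 and 52.4, with a difference of 0.05 ± 0.113. Efna5, a ligand known for topographic maps in the brain, measured 10.03 ± 0.26 with fluoxetine and 10.04 ± 0.18 with vehicle in log2 (SD, n = 3 each). Efna4 stayed below 50 on every array, at 35.3 to 42.0.

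Of the ephrin-B ligands, all 3 reached the level of 50. Efnb2, whose protein marks arteries and also acts at synapses, read 1905, 1774 and 1327 with fluoxetine against 1707, 1690.3 and 1942 with vehicle. Fluoxetine 3 was its lowest array and the other values intermingled (difference −0.11 ± 0.162, SE). Efnb3, a ligand known at the spinal midline and at cortical synapses, read 499.5, 586 and 496 against 405, 431 and 588. Only vehicle 3 kept the Efnb3 groups from separating, and the difference was 0.17 ± 0.169, or 0.33 without that array. Efnb1 varied more within groups, from 209.6 to 429 with fluoxetine and from 253 to 374 with vehicle. Its 2 other tested probe sets differed by −0.02 and 0.12.

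Among the EphA receptors 6 of 9 reached the level of 50, 3 higher and 3 lower, or 4 and 2 under either rescaling, which turns the sign of Epha7. Epha4, a receptor known to bind ephrins of both kinds and to limit dendritic spines, read 2989.9, 5846 and 7908 with fluoxetine and 7882, 7403 and 4956 with vehicle. The fluoxetine arrays thus held both its lowest and its highest value. The difference was −0.35 ± 0.361 (SE), or 0.04 without fluoxetine 1. Epha3 read 133, 154 and 145 against 109, 127 and 134, so that the groups overlapped by fluoxetine 1 and vehicle 3 alone. Its difference was 0.23 ± 0.128, but a second tested probe set of Epha3, at 38.1 to 78.3, differed by −0.43 ± 0.225, so the 2 probe sets disagree in direction. Epha10, which encodes a receptor without an active kinase, read 233, 184 and 252 against 242, 223 and 293 (−0.18 ± 0.166). Epha7 varied little between arrays, from 2948 to 3232 over all 6, with a difference of −0.04 ± 0.103 (95% interval −0.28 to 0.21). That held for its brightest probe set alone: 2 of the other 3 ranged from 524 to 770.2 (−0.19 ± 0.157) and from 478 to 746 (−0.08 ± 0.198), and 1, at 325 to 418, was higher by 0.12 ± 0.125. Epha8 differed by 0.09 and had a range of 50.2 to 68.4.

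For 3 of the 5 tested probe sets of Epha4, arrays within a treatment group differed more than the groups did. The probe sets 1439757_s_at, 1421929_at and 1456863_at of Epha4 all read lowest on fluoxetine 1 and next lowest on vehicle 3: 1421929_at, for example, read 1491, 2470.5 and 3640.5 with fluoxetine and 3565, 3444 and 2168 with vehicle. The other 2 probe sets of Epha4 did not share this spread. On them 1429021_at read 5269.7, 5562 and 5035 against 6525, 6703 and 5468, and 1421928_at read 191 to 208 against 200.3 to 225. All 5 were lower with fluoxetine, by 0.12 to 0.40 on the log2 scale. Epha5, a receptor for ephrin-A ligands in forebrain neurons, was lowest on the same 2 arrays on 1437920_at, which read 715, 1084 and 1886 with fluoxetine and 1234, 1797 and 433 with vehicle. Its probe set 1444690_at ordered the 6 arrays in the same way, from 151 on vehicle 3 to 711 on fluoxetine 3. On 1435286_at, in contrast, Epha5 read 679.9, 409 and 651 against 457, 535 and 458, with fluoxetine 1 the highest. All 4 tested probe sets of Epha5 were higher with fluoxetine, by 0.20 to 0.26, with standard errors of 0.209 to 0.559. A single value for either receptor therefore depends on which probe set is read.

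**Figure D3:**
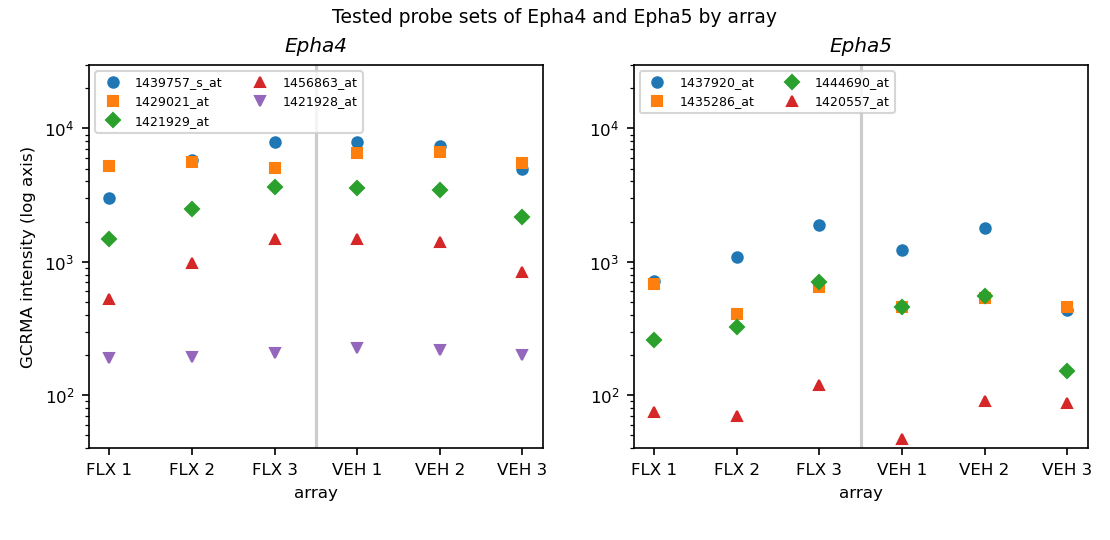
GCRMA intensity (log axis) of the tested probe sets of Epha4 (left, 5 probe sets) and Epha5 (right, 4 probe sets) on each array (FLX fluoxetine, VEH vehicle). The points of 3 probe sets for Epha4 and 2 for Epha5 dip at FLX 1 and VEH 3, while 1429021_at and 1421928_at of Epha4 vary less.

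All 3 tested EphB receptors were measured lower with fluoxetine, as they were under both rescalings. As deposited, 68.5% of all tested genes were lower too. The other EphB member, Ephb4, lay below 50, was not tested and was measured higher (0.59). Ephb3, a receptor for ephrin-B ligands, read 403, 427 and 493 with fluoxetine and 565, 530.2 and 590 with vehicle. Every fluoxetine array lay below every vehicle array. In log2 it measured 8.78 ± 0.15 and 9.13 ± 0.08 (SD, n = 3 each), a difference of −0.35 ± 0.123 (SE, fold 0.783, limma unadjusted p = 0.0232, adjusted p = 0.999). The difference stayed between −0.44 and −0.29 under all 17 alternative treatments of the data that gave it a value, and none gave it an adjusted p under 0.05. Its unadjusted p reached 0.05 or more under 7 of the 17: 0.0652 after quantile normalization, 0.0707 after the shift to a common median, 0.0537 with a replicate block, and 0.0652, 0.0536, 0.0608 and 0.0726 without fluoxetine 1, fluoxetine 2, vehicle 1 or vehicle 3 (limma). Ephb6, a receptor whose kinase is inactive, read 982, 720.2 and 984 against 976, 957 and 1057, a difference of −0.17 ± 0.153 that was −0.02 without fluoxetine 2. Ephb1, which binds ephrin-B ligands too, measured 7.78 ± 0.29 against 7.94 ± 0.05 in log2 (SD, n = 3 each), and by its range of 180.3 to 269.7 with fluoxetine it spanned all the vehicle values. No probe set annotated to Ephb2 alone was found.

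The Slit ligands all reached 50, with 2 measured higher and 1 lower. Slit2 read 1445, 1636 and 1925 with fluoxetine and 2128, 2257 and 1875 with vehicle. The groups overlapped only by fluoxetine 3 and vehicle 3, and the difference was −0.33 ± 0.146 (SE, fold 0.797, limma unadjusted p = 0.0584, adjusted p = 0.999). It lay between −0.44 and −0.23 when any 1 array was left out. With the probe sets of Slit2 averaged it was 0.09, because 2 further probe sets below 50 (10.4 to 26.6) were higher with fluoxetine. Slit3 read 127, 121 and 131 against 112, 100.2 and 117, with every fluoxetine array above every vehicle array. Its difference was 0.20 ± 0.114 (limma unadjusted p = 0.115, adjusted p = 0.999) and was 0.14 to 0.25 when any 1 array was left out. Slit1 spanned 126 to 252 with fluoxetine, around the vehicle values of 158 to 184.

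Among the Robo receptors only Robo1 reached the level of 50. Robo1 read 695, 827 and 750.3 with fluoxetine and 809, 821 and 714 with vehicle, a difference of −0.05 ± 0.122 (SE, 95% interval −0.33 to 0.24). Robo2 read 13.0 to 16.3, Robo3, a receptor known at the spinal midline, 9.35 to 10.4, and Robo4, known in vessels, 10.8 to 19.2. These low readings say only that the probe sets gave little signal above the modelled background.

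Both secreted netrins and 1 netrin-G reached 50, and all 3 were measured lower with fluoxetine, also under both rescalings. Ntng1, which encodes netrin-G1, read 1198, 1914 and 1726 with fluoxetine and 1938, 1996 and 1736 with vehicle. Fluoxetine 1 stood well below the other 5 arrays, and the difference of −0.25 ± 0.188 (SE) was −0.05 without it. A second probe set of Ntng1 read 609, 668 and 661 against 699.5, 687 and 834, without overlap (−0.19 ± 0.123). Ntn4, a netrin-like protein of basement membranes, read 169, 180.3 and 167 against 213, 166 and 219, a difference of −0.20 ± 0.140. Vehicle 2 was its lowest array, so the groups overlapped. Ntn1, the classic netrin, had a range of 69.2 to 104 with fluoxetine and of 81.2 to 95.1 with vehicle (−0.10 ± 0.172, or 0.03 without fluoxetine 3). Ntng2 read 16.3 to 22.0, below the limit, and was measured higher with fluoxetine (0.19) with overlapping groups.

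The 6 netrin receptors all reached 50. Neo1, which encodes neogenin, a receptor for netrins and repulsive guidance molecules, read 5579.6, 5029 and 4442 with fluoxetine and 4996, 4750.3 and 5564 with vehicle. The groups overlapped fully (−0.03 ± 0.132, SE), and its other tested probe set differed by 0.08. Unc5d read 788, 962 and 1065 against 1107, 1403 and 919.7, a difference of −0.27 ± 0.190 in which vehicle 3 lay among the fluoxetine arrays. Unc5c read 386, 333 and 390.3 against 328, 342 and 297. Only fluoxetine 2 and vehicle 2 crossed, and the difference was 0.20 ± 0.122 (limma unadjusted p = 0.152). Dcc, the attractive netrin receptor, read 141, 257 and 331 against 354, 379 and 223, a difference of −0.44 ± 0.341 that was −0.09 without fluoxetine 1. Its second tested probe set differed by −0.35. Unc5a differed by 0.20 ± 0.196 and Unc5b by −0.03 ± 0.152 (0.08 on its second probe set). Unc50 read 4165, 4377 and 4266 against 4646, 4643 and 4490.3, without overlap, but by only −0.11 ± 0.101 (limma unadjusted p = 0.329).

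The ligands and receptors differed between arrays in a way that crossed the treatment groups. On fluoxetine 1 and vehicle 3 the mean over the 7 tested ephrins was 9.08 and 9.07 in log2, against 8.82 to 8.92 on the other 4 arrays. The mean over the 9 tested Eph receptors was lowest on fluoxetine 1, at 8.84, and was 9.01 on vehicle 3. Fluoxetine 2 read 8.99 and the other 3 arrays 9.17 to 9.28. Of these receptors only Epha4 and Epha5 had fluoxetine 1 and vehicle 3 as their lowest 2 arrays. Even for them this did not hold on every probe set. Epha8, Epha10, Ephb3 and Ephb6 read highest on vehicle 3, so the lower mean there was not shared across the family. Over all ligands minus all receptors, fluoxetine 1 (−0.19) and vehicle 3 (−0.23) had the highest values and fluoxetine 3 (−0.64) the lowest. Fluoxetine 1 and vehicle 3 were the lowest 2 arrays for 5 of 16 receptors (Epha4, Epha5, Robo1, Dcc and Unc5d) and 1 of 13 ligands (Efna1), against 9.68% of all tested genes. They were the highest 2 for 4 ligands (Efna2, Efna3, Efnb1 and Efnb2) and 2 receptors (Neo1 and Unc5a), against 13.1% of all tested genes. This pair of arrays was picked out after the values were seen. Over all tested probe sets, the deviations of these 2 arrays from their group means correlated at 0.43, the highest of any fluoxetine and vehicle pair. Their shared deviation was thus not particular to these ligands and receptors. The astrocyte mean was high on fluoxetine 1 (10.99) but not on vehicle 3 (9.73), and the neuronal mean was 13.01 and 12.96 on them against 12.81 to 12.96 on the other 4. Oligodendrocyte markers were highest on these 2 arrays, at 10.56 and 10.43 against 9.79 to 10.40. So were interneuron markers, at 10.88 and 10.83 against 10.45 to 10.82. None of the other marker lists had these 2 arrays as its highest 2 or lowest 2. The part of cell types in this pattern was not tested.

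**Figure D4:**
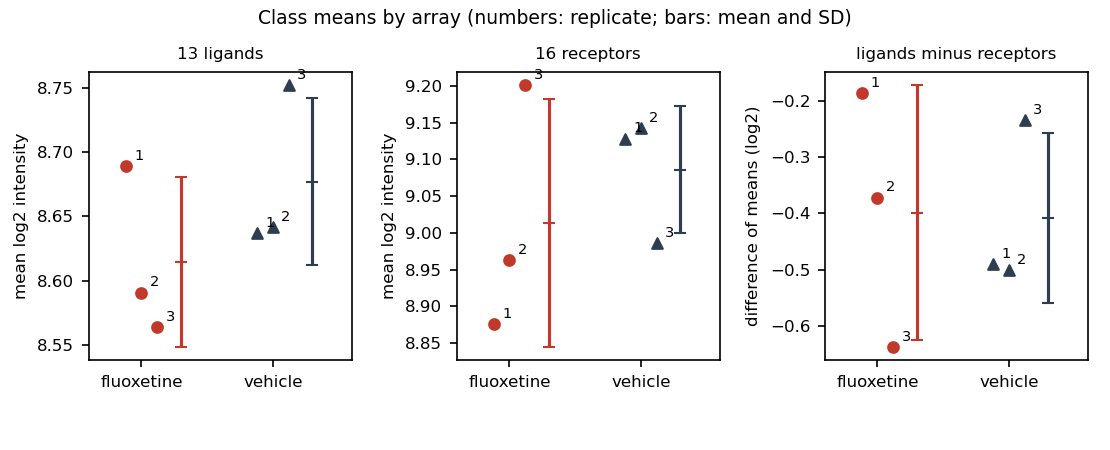
Mean log2 intensity per array over the 13 tested ligands (left) and the 16 tested receptors (middle), and their difference (right), with replicate numbers beside the points and the mean ± SD of each group. Fluoxetine 1 and vehicle 3 are the highest for ligands and are among the lowest 3 for receptors.

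Members below the level of 50 were not tested, and 37.4% of all probe sets below it had groups that do not overlap, so separation there is common. It held for Epha6, which read 36.7, 22.3 and 21.9 with fluoxetine against 43.9, 38.3 and 39.5 with vehicle. It also held for Ephb4, a receptor known in veins, at 55.0, 53.3 and 45.3 against 39.6, 26.2 and 37.7, and for Epha2, at 13.0 to 18.1 against 12.8 on each vehicle array. Epha1 read 5.32 to 7.22 and Unc5cl 2.86 to 2.99.

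Partners and signalling genes of the same pathways, a list of 66 genes outside the rule, gave a similar picture. Of 59 tested genes 14 were higher and 45 lower, none passed, and the median was −0.08 beside −0.06 for all tested genes. After quantile normalization 26 were higher and 32 lower (median −0.01), and after the shift to a common median 23 and 36 (−0.02). Groups did not overlap for 4 of them, all lower, or 6.78% against 8.32% of all genes. The genes with the smallest unadjusted p were Rgs3, whose product links ephrin-B to G protein signalling (−0.29 ± 0.112, SE), Dscam, a netrin-binding adhesion receptor (−0.26 ± 0.119), and Pick1, a scaffold that binds Eph receptors (−0.28 ± 0.151). They were followed by Lrrc4, the netrin-G2 ligand (−0.28 ± 0.159), and Ngef, the exchange factor ephexin downstream of EphA receptors (−0.18 ± 0.112). Ngef read 8934, 9231 and 10451 with fluoxetine and 10806, 10913 and 10715 with vehicle, with every fluoxetine array below every vehicle array. Lrrc4c, which encodes the netrin-G1 ligand and was looked at after its values were seen, read 2041, 3439 and 5612 against 4961, 5168 and 2769, low on the same 2 arrays as Epha4.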

How the data were processed

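Ribosome-bound RNA was measured on 6 single-colour Affymetrix arrays, from 15 ng of RNA amplified in 2 cycles per the labels' protocols. The table deposited by the authors holds linear intensity from GCRMA (version not given in the sources used here), which models background by probe sequence and rescales the arrays. The deposited arrays were still not equal, with upper quartiles from 498 (fluoxetine 2) to 574 (vehicle 2). Low values are compressed by GCRMA, and a change common to most genes may not be seen. Arrays give no read depth, and their number limits the precision.

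Of 45101 probe sets, 64 controls were left out. A platform annotation named 34945 with 1 symbol, 932 had several and 9160 none. By gene identifier, 40 of 40 member symbols were found in the RefSeq table (GRCm38.p6), unchanged. Log2 values were fitted without offset in limma 3.58.1 under R 4.3.3 (lmFit, eBayes, two-sided, no block, 6 arrays) over 22326 probe sets, with Benjamini-Hochberg adjustment and a threshold of 0.05, after a check on simulated data. Members and lists were chosen with earlier results of these data known. Values on all arrays are given for members with non-overlapping groups or an unadjusted p under 0.05, and per class for the 2 of smallest p and the brightest. Dcc, Epha5, Lrrc4c and the pair of arrays fluoxetine 1 and vehicle 3 were added after the values were seen. Replicate numbers do not pair the arrays, and no batch is labelled. Every sample column was used.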

Additional observations from a re-analysis of the deposited data

How the results depend on the processing

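No probe set and no member passed under any of the 18 alternatives: no filter, a minimum of 100, both group means of at least 50, an offset of 16, quantile normalization, a common median, the replicate block, trend and robust variances, array weights, averaged probe sets, no probe sets with the suffix _s_at, _x_at or _a_at, each array left out in turn, and a threshold of 0.10. Probe sets with those suffixes can match several transcripts or genes. The replicate block gave 0 calls too, with a smallest adjusted p of 1.00 in limma, and same-numbered arrays deviated with correlations of −0.25, −0.03 and −0.50. At an unadjusted p under 0.05, limma had 563 probe sets (165 higher, 398 lower), but 267 higher and 209 lower after quantile normalization. The median difference of ligands was 0.0027 after quantile normalization, 0.017 with probe sets averaged, −0.13 with array weights and −0.19 to 0.022 without 1 array. That of receptors was −0.16 to −0.02 without 1 array. Of 319 alternative values of the 19 members described in full, 16 changed sign. Efna3 became 0.0027 after quantile normalization and 0.0047 with probe sets averaged. Neo1 became 0.056 (quantile), 0.033 (common median), 0.038 (averaged) and 0.081 (no probe sets with those suffixes), and Robo1 0.027 (quantile) and 0.015 (common median). Slit2 became 0.093 when averaged. Without 1 array, ranges among these 19 crossed 0 for Epha4 (−0.66 to 0.040), Robo1 (−0.11 to 0.015), Efna3 (−0.20 to 0.035), Efna1 (−0.0039 to 0.095), Efnb2 (−0.21 to 0.050) and Neo1 (−0.11 to 0.057). Among the other tested members they crossed 0 for Epha5 (−0.39 to 0.63), Efnb1 (−0.30 to 0.22), Slit1 (−0.23 to 0.27), Unc5b, Efna5, Epha8 and Ntn1. Only changes far above the median standard error of 0.158 for members could have been called. Even the smallest unadjusted p over all 22326 tested probe sets, 0.000679 in limma, had an adjusted p of 0.999.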
